A study of Mus musculus with 2 samples.

Results

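Cells keep their genome intact through several repair pathways, each suited to a kind of damage, and through kinases that halt the cell cycle while repair goes on. Neural stem cells copy their DNA often, and replication forks are a main source of the breaks that homologous recombination and the Fanconi anaemia proteins mend, so many of these genes are transcribed most in S and G2 phase. The expression of 35 genes of DNA repair and damage signalling was examined here, out of 17359 genes in the table. The genes were chosen by symbol for their known roles, with earlier results of these data known, and all 35 were found, each on 1 row. They comprise 12 genes of homologous recombination, 3 of the Fanconi anaemia pathway, 2 of mismatch repair, 6 of base excision and single-strand break repair, 3 of non-homologous end joining, 3 of nucleotide excision repair and 6 of ATM and ATR signalling.

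RNA came from mouse neural stem cells transfected with a scrambled siRNA (siSCR, labelled as control, 1 library) or with an siRNA against Chd4 (siChd4, labelled as Chd4 knockdown, 1 library). The series is about Seh1, a nuclear pore protein, in the formation of neurons, and these libraries address Chd4, which encodes the remodelling ATPase of NuRD, a chromatin complex that also deacetylates histones. No source used here gives the strain, the age, the siRNA dose or the interval before harvest. With 1 library per group there is no spread between cultures, so no test between the groups was possible, and every difference below is between these libraries only.

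The libraries held 19816811 (siSCR) and 20072009 (siChd4) estimated counts. Chd4 itself was at 203 TPM (transcripts per unit of library, corrected for length) with siChd4 and 250 TPM with siSCR, a TPM fold of 0.815 (95% counting interval 0.795 to 0.836). That is a small difference: 19.4% of 12882 genes, those whose TPM averaged 1 or more, had a lower ratio. All 7 of 7 neural stem cell markers passed the mean TPM of 1, as with Sox2 (336 TPM with siChd4 and 314 TPM with siSCR). They ran from Pax6 (18.6 and 21.6 TPM) to Fabp7 (7004 and 6105 TPM). Of the 7, 6 had log2 ratios above 0 and 1 (Pax6) below, with a median of 0.20. Microglial markers were near 0, with a summed level of 0.58 TPM with siChd4 and 0.27 TPM with siSCR over 4 listed genes. The 4 fibroblast markers summed to 3.10 and 1.08 TPM, and the 3 listed endothelial markers to 2.09 and 1.2 TPM. Of the 5 astrocyte markers, 3 had log2 ratios below 0 and 2 above; Gja1 was at 40.8 TPM with siChd4 and 105 TPM with siSCR (0.387-fold, 0.360 to 0.416), and the sum of the 5 (496 and 451 TPM) was mostly Aldh1l1 (421 and 309 TPM). Neuron markers (6 of 6 above 0 in log2 ratio, summed level 600.0 TPM with siChd4 and 455 TPM with siSCR) and oligodendrocyte lineage markers (6 of 6, 80.2 and 43.8 TPM) were higher in siChd4. The neuron sum was mostly Map2 (516 TPM with siChd4 and 427 TPM with siSCR). The counting intervals of 4 neuron markers lay above 1, and those of Rbfox3 (1.68 and 1.07 TPM) and Stmn2 (2.39 and 1.37 TPM) held 1. The part of these marker genes, astrocyte markers included, in the values below was not tested. Fewer cells of a type and less RNA per cell cannot be told apart in such bulk samples.

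Repair and checkpoint genes were lower in siChd4 as a rule, and by modest amounts. Of the 35 genes, 32 had a log2 ratio below 0 (log2 of TPM plus 1 in siChd4 over TPM plus 1 in siSCR), where 55.3% of all 12882 genes did. The median log2 ratio of the members was -0.24, against -0.04 over all genes, and the median TPM fold was 0.833 against 0.972. The summed level of the 35 genes was 1362 TPM with siChd4 and 1587 TPM with siSCR. Few single genes passed a large difference: on the scale of TPM plus 1, 1 member was at least 1.5-fold lower, against 4.47% (576) of all genes, and 0 were at least 1.5-fold higher, against 6.75% (870). With upper quartile scaling those numbers over all genes were 429 lower and 1021 higher, and on FPKM 295 and 721. At a looser limit of 0.32 on the log2 scale, 14 members (40.0%) were lower, where 17.1% of all genes were, and 1 member was higher, where 14.9% were.

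The 95% counting interval of the TPM fold lay below 1 for 28 members (80.0%), where it did so for 34.1% of all genes, and above 1 for 1 member, where it did so for 25.1%. With upper quartile scaling 21 members lay below and 2 above, where 26.6% and 32.3% of all genes did. These intervals cover counting error only, and they are narrower for deeply counted genes: the median member had 1041 estimated counts in siSCR and the median gene 683. A call by the interval is therefore easier for the members than for the typical gene.

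**Figure D1:**
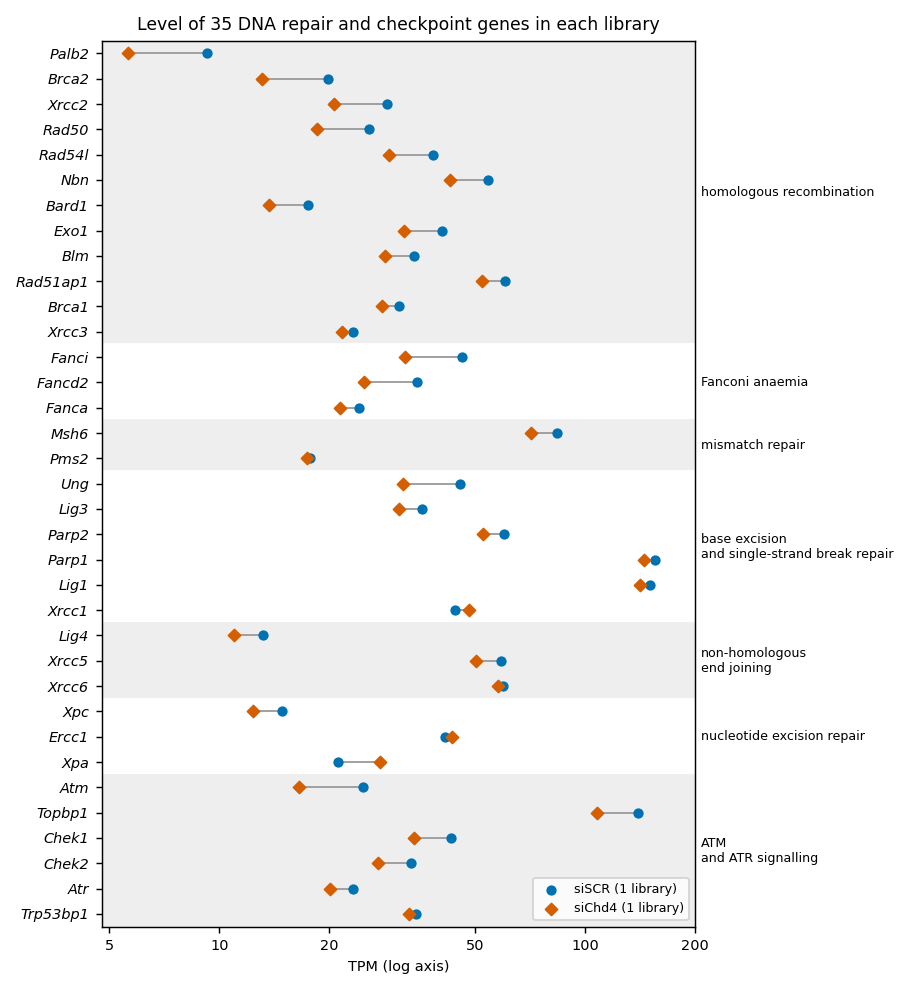
Levels in TPM (log axis) of the 35 genes in the siSCR library (circles) and the siChd4 library (diamonds), ordered by pathway and, within each, by log2 ratio. The diamond lies left of the circle for 32 genes and right of it for Xrcc1, Ercc1 and Xpa.

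To show the regulatory sequence at the ends of the range, the promoter windows of the lowest (Palb2 and Brca2) and highest (Xrcc1 and Xpa) members with a RefSeq entry follow, from 250 bases before to 50 bases after the annotated start. They are RefSeq sequences of build GRCm38.p6, printed 5′ to 3′ on the gene's strand, whereas the table was made on mm39. The windows are chr7:122132897-122133196 on the minus strand (Palb2), chr5:150522371-150522670 on the plus strand (Brca2), chr7:24546449-24546748 on the plus strand (Xrcc1) and chr4:46196262-46196561 on the minus strand (Xpa). Capitals mark matches to the motifs searched.
Palb2: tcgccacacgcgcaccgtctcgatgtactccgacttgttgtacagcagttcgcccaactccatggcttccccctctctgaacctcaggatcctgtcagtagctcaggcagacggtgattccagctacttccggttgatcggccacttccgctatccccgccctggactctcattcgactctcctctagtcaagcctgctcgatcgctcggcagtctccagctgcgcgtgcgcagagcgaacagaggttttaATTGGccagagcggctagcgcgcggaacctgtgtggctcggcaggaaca
Brca2: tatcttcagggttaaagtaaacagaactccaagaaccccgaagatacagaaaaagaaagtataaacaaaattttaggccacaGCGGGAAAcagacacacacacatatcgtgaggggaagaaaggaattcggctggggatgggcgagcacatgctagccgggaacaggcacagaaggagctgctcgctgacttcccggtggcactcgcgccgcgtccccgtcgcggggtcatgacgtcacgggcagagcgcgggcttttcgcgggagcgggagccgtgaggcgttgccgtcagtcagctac
Xrcc1: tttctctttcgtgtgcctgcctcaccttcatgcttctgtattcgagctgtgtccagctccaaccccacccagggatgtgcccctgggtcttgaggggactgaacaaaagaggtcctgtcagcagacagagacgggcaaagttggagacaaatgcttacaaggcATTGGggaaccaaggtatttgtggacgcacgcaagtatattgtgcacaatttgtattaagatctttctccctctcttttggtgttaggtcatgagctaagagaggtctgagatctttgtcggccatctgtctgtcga
Xpa: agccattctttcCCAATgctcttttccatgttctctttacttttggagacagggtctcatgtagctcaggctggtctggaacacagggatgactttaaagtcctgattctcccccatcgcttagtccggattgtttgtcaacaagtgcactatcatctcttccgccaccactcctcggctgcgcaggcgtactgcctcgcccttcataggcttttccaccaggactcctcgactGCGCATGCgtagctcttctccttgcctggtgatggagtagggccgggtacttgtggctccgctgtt

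In these windows, Brca2 held TTTCCCGC, a form of the binding site of the E2F factors that drive S phase genes, on the minus strand and starting 168 bases before the start. Xpa held GCGCATGC, the core of the site of the growth-linked factor NRF1, 16 bases before the start. Palb2, Xrcc1 and Xpa each held CCAAT, the site of the factor NF-Y, on one strand. Windows were found for 29 of the 35 members, and a gene was counted when any of its windows held the letters on either strand. TTTCCCGC was in 5 of the 29 (17.2%: Bard1, Brca2, Chek2, Msh6 and Xrcc6), against 2.39% of 10330 genes past the TPM limit with a window, and 1.07% of all 32851 windows. The other E2F form searched, TTTGGCGC, was in 0 members, against 1.07% of those genes and 0.514% of windows. GCGCATGC was in 7 (24.1%: Atm, Fanci, Lig1, Lig4, Parp2, Xpa and Xrcc5), against 5.99% of genes and 2.71% of windows. CCAAT was in 15 (51.7%), against 43.7% of genes and 37.4% of windows. TTTGAA, the CHR element of genes expressed in G2 and M phase, was in 1 (Bard1, 3.45%), against 14.0% of genes and 17.9% of windows. The 5 members with an E2F match had log2 ratios from -0.56 to -0.04 (median -0.28), and the 24 without one from -0.62 to 0.37 (median -0.20), so the ranges overlapped. An E2F match was in 3 of 13 members with a textbook link to S phase (listed below) and in 2 of 16 others. The median GC content was 58.3% over the 33 windows of the members and 52.7% over all windows. The part of GC content in these motif shares was not tested. A match describes letters in the window, not binding.

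Homologous recombination copies the lost sequence from an intact sister chromatid. All 12 members of this pathway had log2 ratios below 0 (55.3% of all genes did), with a median of -0.34. Of their counting intervals, 11 of 12 lay below 1 (34.1% of all genes). BRCA1 and its partner BARD1 act early, at the break. Brca1 was at 27.9 TPM with siChd4 and 31.0 TPM with siSCR (0.899-fold, 0.836 to 0.966), and Bard1 at 13.7 and 17.5 TPM (0.780-fold, 0.6995 to 0.870). The pair thus differed in the same direction by unequal amounts, with overlapping intervals.

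PALB2 bridges BRCA1 to BRCA2, which acts at the resected single-stranded DNA. Palb2 was at 5.64 TPM with siChd4 and 9.24 TPM with siSCR (0.610-fold, 0.491 to 0.758), the lowest log2 ratio of the 35 (-0.62). Brca2 was at 13.1 and 19.8 TPM (0.661-fold, 0.612 to 0.714), a log2 ratio of -0.56. The 1.5-fold limit is set on TPM plus 1, where Palb2 was the 1 member past it; Brca2, whose TPM fold alone is past it, lay just inside. The value of Palb2 depends on the length behind it: its effective transcript length, as implied by the counts and FPKM, was 1.196 times that in siSCR relative to other genes, its estimated counts were 152 and 197 (a ratio of 0.770), and on CPM with TMM scaling its log2 ratio was -0.38, which is within the 1.5-fold limit. A shift of over 1.1 times was found for 2 members, Palb2 and Atr, and for 3.59% of all genes.

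The recombination step itself was represented by Rad51ap1, whose product promotes strand pairing, by Rad54l, a motor protein that opens the partner duplex, and by Xrcc2 and Xrcc3, whose products act together with other recombination factors at the break. Rad54l was at 29.1 TPM with siChd4 and 38.3 TPM with siSCR (0.759-fold, 0.697 to 0.825). Xrcc2 was at 20.6 and 28.8 TPM (0.715-fold, 0.639 to 0.801), while Xrcc3 was at 21.6 and 23.3 TPM (0.927-fold, 0.811 to 1.06), the 1 recombination gene whose interval held 1. Rad51ap1, the most abundant of the group, was at 52.3 and 60.4 TPM (0.866-fold, 0.787 to 0.952).

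Break ends are sensed and trimmed by the MRE11 complex, of which Rad50 and Nbn encode 2 subunits, and by the nuclease Exo1, and crossed strands are resolved with the helicase Blm. Rad50 was at 18.5 TPM with siChd4 and 25.6 TPM with siSCR (0.723-fold, 0.658 to 0.794). Nbn was at 42.6 and 54.2 TPM (0.786-fold, 0.719 to 0.860) and Exo1 at 32.1 and 40.7 TPM (0.788-fold, 0.720 to 0.863). Blm, at 28.3 and 34.2 TPM (0.829-fold, 0.763 to 0.901), was nearer to 1. Subunits of the sensing complex were thus lower together, and Mre11a, the nuclease subunit and not one of the 35, was at 19.9 and 25.7 TPM (0.773-fold, 0.708 to 0.843).

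The Fanconi anaemia pathway unhooks crosslinks between DNA strands. FANCD2 and FANCI form the clamp that is ubiquitinated at the lesion, and FANCA belongs to the ligase complex that modifies it. Both clamp genes were among the lowest of the 35: Fancd2 was at 24.8 TPM with siChd4 and 34.8 TPM with siSCR (0.713-fold, 0.658 to 0.773), and Fanci at 32.1 and 46.1 TPM (0.698-fold, 0.647 to 0.752). Fanca was at 21.4 and 24.1 TPM (0.889-fold, 0.811 to 0.974). Its estimated counts were nearly equal (948 and 934), and its log2 ratio was -0.02 on CPM with TMM scaling, against -0.16 on TPM, so the Fanca difference was not seen in the counts. Intervals of the clamp genes did not overlap that of Fanca.

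**Figure D2:**
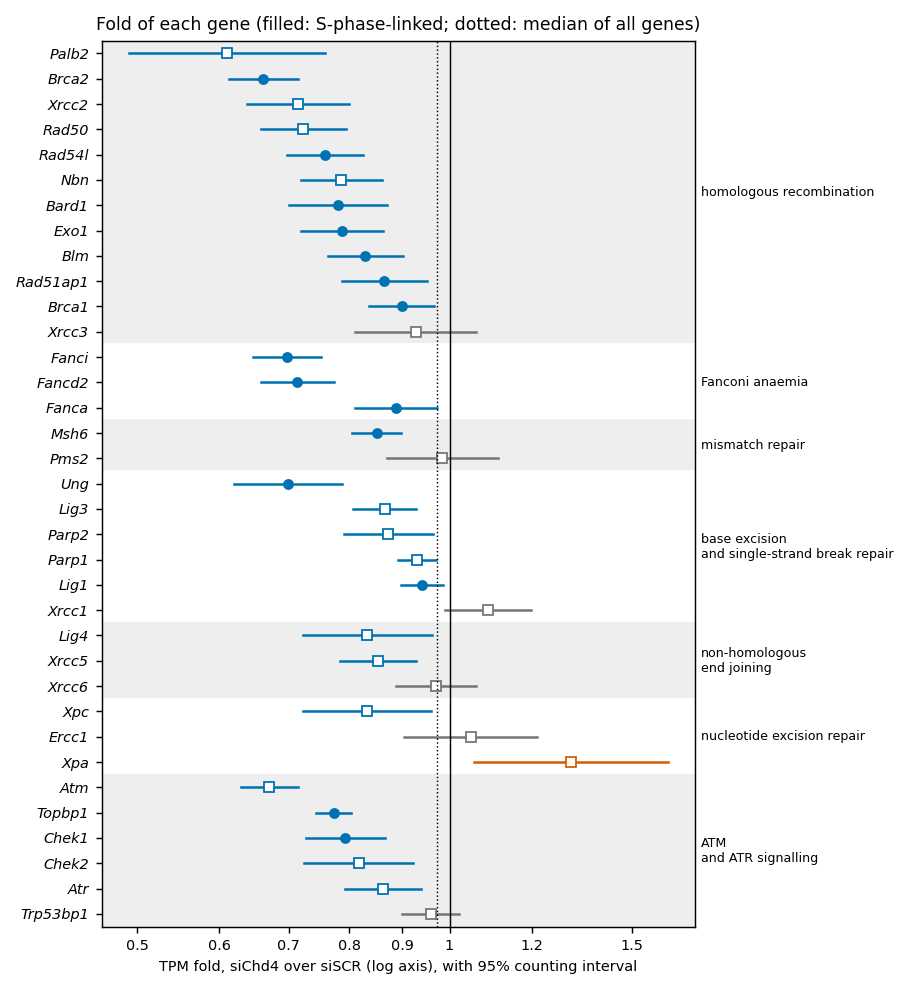
TPM fold of siChd4 over siSCR (log axis) for each gene, with its 95% counting interval as a bar; filled circles are genes linked to S phase, open squares the others, blue an interval below 1, grey one that holds 1, orange one above 1. Of the 35 bars, 28 lie below 1, 6 hold 1 and 1 (Xpa) lies above 1; the dotted line is the median fold of all genes, 0.972.

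ATM and ATR are the kinases that answer double-strand breaks and stalled forks, and they act through CHEK2 and CHEK1. All 6 genes of this group had log2 ratios below 0 (median -0.30), where 55.3% of all genes did. Of their intervals, 5 of 6 lay below 1, where 34.1% of all genes did. Atm was at 16.6 TPM with siChd4 and 24.7 TPM with siSCR (0.670-fold, 0.629 to 0.714), with 1643 and 2325 estimated counts, and Atr at 20.1 and 23.3 TPM (0.863-fold, 0.793 to 0.938). Chek1 was at 34.1 and 42.9 TPM (0.793-fold, 0.727 to 0.866) and Chek2 at 27.2 and 33.3 TPM (0.817-fold, 0.724 to 0.922). The break kinase gene was thus further from 1 than the fork kinase gene, while the genes of their effector kinases had overlapping intervals. On CPM with TMM scaling Atr had a log2 ratio of -0.35, against -0.20 on TPM, because its effective length in siChd4 was 0.885 times that in siSCR.

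Topbp1, the activator of ATR, was the most abundant gene of the group, at 108 TPM with siChd4 and 139 TPM with siSCR (0.773-fold, 0.743 to 0.804). Trp53bp1, whose product binds chromatin at breaks and favours end joining over recombination, was at 33.1 and 34.5 TPM (0.959-fold, 0.8995 to 1.02). The interval of Trp53bp1 held 1. It overlapped those of the recombination genes Brca1, Blm, Rad51ap1 and Xrcc3, and lay above those of the other recombination members, Brca2 among them.

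Base excision repair removes single damaged bases, and XRCC1, LIG3 and the PARP enzymes help to seal the strand break. Of its 6 members, 5 had log2 ratios below 0, where 55.3% of all genes did, with a median over the 6 of -0.15. Ung, the glycosylase that takes uracil out of DNA, stood apart at 31.8 TPM with siChd4 and 45.5 TPM with siSCR (0.699-fold, 0.620 to 0.787). The most abundant of the 35 genes were nearly level: Parp1 was at 145 and 156 TPM (0.930-fold, 0.891 to 0.970), and Lig1, the replicative ligase, at 141 and 150 TPM (0.942-fold, 0.899 to 0.986). Parp2 was at 52.5 and 60.1 TPM (0.873-fold, 0.791 to 0.964) and Lig3 at 31.1 and 35.9 TPM (0.866-fold, 0.807 to 0.929). Xrcc1, the scaffold of the pathway, was at 48.0 and 44.1 TPM (1.09-fold, 0.990 to 1.197), so its direction was opposite to that of the other 5, with an interval that held 1.

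Non-homologous end joining ligates break ends without a template and works in all phases of the cell cycle. The Ku subunits that grip the ends are encoded by Xrcc6 (Ku70) and Xrcc5 (Ku80). Xrcc6 was at 57.7 TPM with siChd4 and 59.5 TPM with siSCR (0.970-fold, 0.887 to 1.06), and Xrcc5 at 50.3 and 59.0 TPM (0.853-fold, 0.784 to 0.928). Lig4, the ligase of the pathway, was at 10.95 and 13.1 TPM (0.833-fold, 0.722 to 0.961). In mismatch repair, Msh6, which recognises mispaired bases, was at 71.1 and 83.5 TPM (0.851-fold, 0.805 to 0.898), and Pms2, the endonuclease subunit, at 17.4 and 17.7 TPM (0.984-fold, 0.870 to 1.11). The interval of Pms2, like that of Xrcc6, held 1.

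Nucleotide excision repair, which cuts out bulky lesions such as ultraviolet photoproducts, held the genes that were higher in siChd4 besides Xrcc1. Xpa, which verifies the lesion and assembles the incision complex, was at 27.6 TPM with siChd4 and 21.1 TPM with siSCR (1.31-fold, 1.06 to 1.63), from 208 and 151 estimated counts. It had the highest log2 ratio of the 35 (0.37) and was the 1 member with an interval above 1. Ercc1, a subunit of a nuclease that cuts the damaged strand beside the lesion, was at 43.3 and 41.3 TPM (1.05-fold, 0.905 to 1.22), with an interval that held 1. Xpc, which senses the distorted helix, was at 12.4 and 14.9 TPM (0.833-fold, 0.722 to 0.960). The genes of this pathway therefore did not share a direction.

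Transcript length moved with these values. The 2 longest members, Atm (11.9 kb) and Brca2 (10.4 kb), were among the 3 lowest ratios, and the 2 shortest, Xpa (0.906 kb) and Ercc1 (1.07 kb), among the 3 highest. Across the 35 genes, Pearson's r of log2 ratio with log2 length was -0.51 and Spearman's rho -0.32, and without Atm and Brca2 they were -0.41 and -0.21. Over all 12882 genes they were -0.14 and -0.18. These are descriptions across genes, which share both libraries and are not independent replicates. After the trend of all genes with length was subtracted, Atm was at -0.27, Brca2 at -0.32, Atr at -0.05, Brca1 at 0.00 and Trp53bp1 at 0.11 on the log2 scale. The members' median was then -0.21, and 29 of the 35 (82.9%) were below 0, where 49.7% of all genes were. Ung (1.83 kb, -0.52), Palb2 (2.95 kb, -0.60) and Fanci (4.52 kb, -0.44) were the 3 lowest on this scale.

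**Figure D3:**
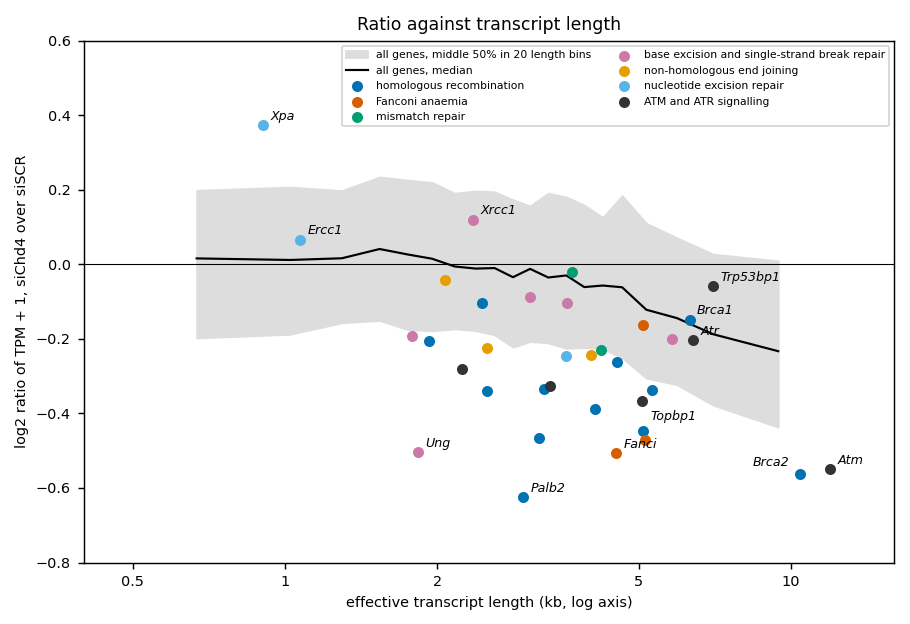
Log2 ratio of TPM plus 1 (siChd4 over siSCR) against effective transcript length in kb (log axis) for the 35 genes, coloured by pathway; the black line and grey band give the median and the middle 50% of all genes in 20 bins of length. Most members lie below the black line at their own length. Atm and Brca2 lie at the far right, beyond the end of the line at 9.43 kb, where it is lowest.

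The genes were then divided by their textbook link to S phase. The 15 linked genes (Brca1, Brca2, Bard1, Rad51ap1, Rad54l, Fanca, Fancd2, Fanci, Blm, Exo1, Msh6, Lig1, Ung, Chek1 and Topbp1) had log2 ratios from -0.56 to -0.09, all 15 below 0, with a median of -0.33. The other 20 ranged from -0.62 to 0.37, with 17 below 0 and a median of -0.20. The range of the linked genes lay within that of the others, the linked genes were longer (median 4.52 kb against 3.06 kb), and the difference between the groups was not tested. With the length trend subtracted the medians were -0.27 and -0.14. Proliferation genes moved in the same direction, where 55.3% of all genes were below 0 (median -0.04). Of the G2 and M phase genes, 12 of 12 were below 0 (median -0.42), with Mki67, a marker of cycling cells, at 221 TPM with siChd4 and 331 TPM with siSCR. Of the S phase genes, 16 of 18 were (median -0.13), with the replication clamp gene Pcna at 811 and 912 TPM. The part of these proliferation genes in the values of the repair genes was not tested. Targets of p53, the transcription factor that damage activates, were split, with a share below 0 near that of all genes: 8 of 16 were below 0 and 8 above (median 0.03). Cdkn1a, the cell cycle inhibitor among them, was at 662 and 577 TPM (1.15-fold, 1.11 to 1.18).

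A further 135 genes, listed by textbook role, gave a weaker form of the same picture. They belong to the same pathways and, for 14, to translesion synthesis and fork protection, which has none of the 35 members. Of the 134 past the TPM limit, 100 (74.6%) were below 0, where 55.3% of all genes were, with a median log2 ratio over the 134 of -0.16. At the 1.5-fold limit 6 were lower (4.48%, close to the 4.47% of all genes) and 1 was higher, where 6.75% of all genes were. By pathway, the medians were -0.27 for 32 recombination genes, -0.27 for 14 genes of translesion synthesis and fork protection, -0.21 for 9 end joining genes, -0.19 for 22 ATM and ATR signalling genes, -0.10 for 5 mismatch repair genes, -0.09 for 20 base excision genes, -0.07 for 12 Fanconi anaemia genes and -0.02 for 20 nucleotide excision genes. The Fanconi anaemia value is far from the median of -0.47 over the 3 members, so those 3 do not stand for the pathway.

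Of the 32 further recombination genes, 27 were below 0 and 5 above, and the intervals of 2 lay above 1. These were the nuclease scaffold gene Slx4 (26.6 and 21.4 TPM, 1.24-fold, 1.14 to 1.35) and Sfr1 (260 and 222 TPM, 1.17-fold, 1.11 to 1.23). The recombination genes past the limit were Rad51b (3.34 TPM with siChd4 and 6.07 TPM with siSCR, 0.550-fold, 0.373 to 0.803), and the Werner helicase gene Wrn (6.07 and 10.1 TPM, 0.602-fold, 0.522 to 0.694). The end joining kinase gene Prkdc (8.87 and 14.4 TPM, 0.616-fold, 0.561 to 0.677) was lower too. So were Polh, of the polymerase that copies past ultraviolet damage (31.4 and 50.3 TPM, 0.624-fold, 0.571 to 0.682), and the fork remodeller gene Zranb3 (8.64 and 13.5 TPM, 0.640-fold, 0.558 to 0.733). In base excision repair, glycosylase genes went opposite ways. Nthl1, of the enzyme for oxidised pyrimidines, was at 8.53 and 13.7 TPM (0.621-fold, 0.467 to 0.821), whereas Mpg, of the enzyme for alkylated bases, was at 14.99 and 5.82 TPM (2.58-fold, 1.98 to 3.38), the highest ratio of all 134. In other pathways with no gene past the limit, the most abundant was Usp1 (123 and 153 TPM, 0.802-fold), which deubiquitinates the Fanconi clamp, the damage-binding subunit gene Ddb1 (335 and 343 TPM, 0.975-fold), and H2ax (273 and 301 TPM, 0.907-fold), the histone that ATM phosphorylates at breaks.

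**Figure D4:**
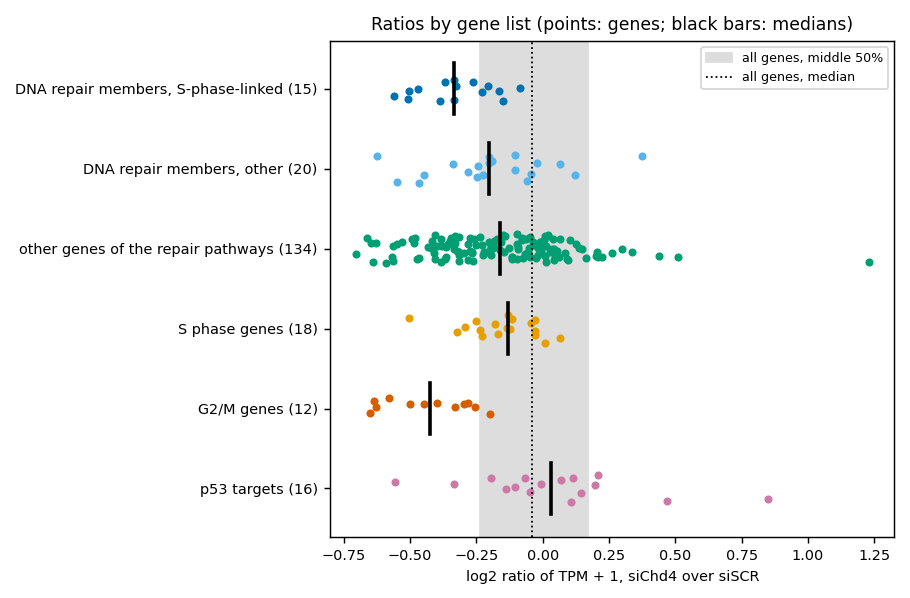
Log2 ratios of TPM plus 1 for single genes (points) in 6 lists, with each list's median as a black bar; the dotted line and grey band are the median and middle 50% of all genes. The medians are -0.33 and -0.20 for the members linked to S phase and the others, -0.16 for other pathway genes, -0.13 for S phase genes, -0.42 for G2 and M phase genes and 0.03 for p53 targets.

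Several members share a promoter region or transcribed bases with another gene. RefSeq windows were found for 29 of the 35 members. Of these, 11 had a start on the opposite strand within 1000 bases upstream, and the neighbour passed the TPM limit for 9. The share of all genes with such a neighbour was not computed. Of these 9 neighbours, 6 were below 0 and 3 above (median log2 ratio -0.16), where 55.3% of all genes were below 0 (median -0.04). Npat, a histone gene activator that starts 376 bases from Atm, was at 24.2 TPM with siChd4 and 32.1 TPM with siSCR (0.753-fold, 0.697 to 0.814), the same direction as Atm. Dctn5, a dynactin subunit gene that starts 95 bases from Palb2, was at 109 and 105 TPM (1.04-fold, 0.959 to 1.12), unlike Palb2. Nbr1, an autophagy receptor gene 152 bases from Brca1, was at 98.2 and 110 TPM (0.892-fold, 0.853 to 0.933). Desi1, a SUMO protease gene 149 bases from Xrcc6, was at 71.5 and 87.5 TPM (0.817-fold, 0.766 to 0.871).

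In the GENCODE M21 annotation, 12 of the 35 members have exon bases that overlap an exon of a gene of the table on the opposite strand. The share of all genes with such an overlap was not computed. The overlap was 27.9% of the exon bases of Lig3 (with Rffl), 22.1% of Trp53bp1 (with Tubgcp4), 13.4% of Fanci (with Polg) and under these values for Fanca, Xrcc6, Lig1, Ercc1, Xpa, Fancd2, Rad54l, Atr and Msh6. No source used here says whether the authors' counts used strand, so reads of such pairs cannot be told apart and the values of these members carry that uncertainty.

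Filters leave a member's value as it is and a pseudocount cannot turn its sign, so the direction was compared over the 5 alternatives that can turn it. Median-of-ratios scaling, upper quartile scaling and FPKM rescale a whole library and so shift all TPM folds alike, whereas CPM with TMM scaling and the subtracted length trend move genes by unequal amounts. With these and the TPM values, 28 members had log2 ratios below 0 each time, 3 (Xrcc1, Ercc1 and Xpa) were above 0 each time, and 4 (Brca1, Pms2, Xrcc6 and Trp53bp1) changed sign. Of all genes, 46.6% (upper quartile scaling) to 55.3% (TPM) were below 0 in a single one of these settings. The share of all genes below 0 each time was not computed. The members' median ran from -0.26 (pseudocount 0.1) to -0.17 (FPKM), and that of all genes from -0.05 to 0.03. In each of the 9 settings plotted 29 to 32 of the 35 lay below the median of all genes.

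**Figure D5:**
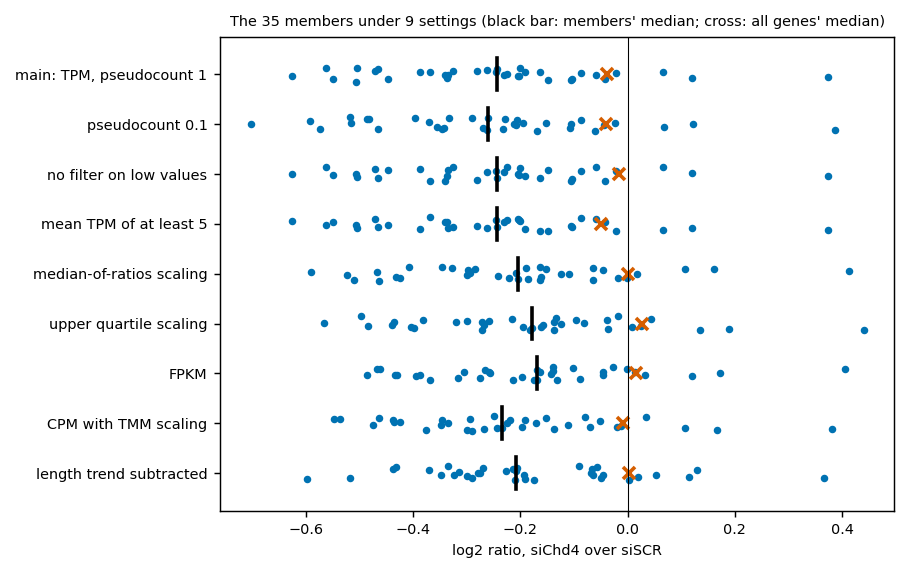
Log2 ratios (siChd4 over siSCR) of the 35 genes (points) under 9 settings, with the members' median as a black bar and the median of all genes as an orange cross. The black bar lies left of the cross in all 9 settings, with medians of the members between -0.26 and -0.17.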

How the data were processed

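The authors deposited 1 table with FPKM, TPM and estimated counts per gene, per the file headers. Per the submitters' processing notes, reads were mapped to mm39. For the aligner, the counter and the use of strand, the sources used here give nothing. The deposited TPM sum to 1000000 per library, and 16.0% (siSCR) and 17.8% (siChd4) of the deposited counts are whole numbers, so the counts are estimates. Groups were taken from the sample titles.

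Ratios of the libraries are log2 values after 1 was added to each TPM as a pseudocount, a scale that understates differences of low genes, over 12882 genes whose TPM averaged 1 or more. All 35 members passed this limit. Intervals are exact Clopper-Pearson 95% intervals of the counts, rounded to whole numbers and carried to the TPM fold. They cover counting error only, since without molecular identifiers a read is not an independent molecule. Member counts ran from 151 to 5559. Calculations used Python 3.11.15, SciPy 1.17.1, statsmodels 0.14.6 (lowess, span 0.3, for the length trend) and edgeR 4.0.16 (TMM factors only), and were tested on simulated data. Effective length was counts over FPKM and library total.

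The text names all 35 members, Chd4, and other pathway genes past 1.5-fold or, where a pathway has none, its most abundant gene; 1 gene that this rule takes is not reported here. Mre11a, Slx4, Sfr1, the divergent neighbours, the motifs, and the genes named for cell types, proliferation and p53 were chosen after values were seen. Members and lists were chosen with earlier results of these data known. Of the 135 other pathway genes, all were matched, 3 under another symbol through RefSeq synonyms.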

Additional observations from a re-analysis of the deposited data

How the results depend on the processing

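The alternatives were a pseudocount of 0.1, no filter, a mean TPM of at least 5, median-of-ratios and upper quartile scaling, FPKM, CPM with TMM scaling, a subtracted length trend, limits of 0.32 on the log2 scale and of 2-fold, and means of lists. The number of members at least 1.5-fold lower, 1 on TPM, was 2 with a pseudocount of 0.1, 0 with upper quartile scaling, on FPKM and on CPM with TMM scaling, 14 at the 0.32 limit and 0 at a 2-fold limit. The number higher, 0 on TPM, was 1 at the 0.32 limit. Members with an interval above 1, 1 on TPM, were 2 with median-of-ratios or upper quartile scaling, on FPKM, on CPM with TMM scaling and with the length trend subtracted. Members with an interval below 1 numbered 21 to 28. Medians of all members and of both classes stayed below 0 in each of these settings. They also stayed between the median lower and the median upper interval limit of their genes. That range is about as wide as the interval of a single gene, and the counting error of a median was not computed. By construction a pseudocount of 0.1 shrinks low genes less. FPKM changes both the scaling between libraries and the weight of the pseudocount, whose shares were not separated. Median-of-ratios and upper quartile scaling multiply a whole library by 1 factor. CPM does not correct for effective length. The members it moved past counting error were Palb2, Fanca and Atr, with length ratios of 1.196, 1.08 and 0.885. Causes beyond these steps of calculation were not tested. Both filters leave member values as they are. Over the other 6 settings of unit, scaling, pseudocount and length trend, 18 of 210 member values moved past their counting error and 10 changed sign, and 3 of these settings (both scalings and FPKM) rescale whole libraries and so shift all members together. Depth limits Palb2 and Xpa most, with the fewest counts. No paired analysis was possible because neither group has replicates, and no library could be left out.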
